A study of Homo sapiens with 72 samples.

Results

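The analysis concerned PEO1 cells, an established ovarian cancer line of the high-grade serous type, harvested after 2 h with the PARP inhibitor rucaparib either through a cell sorter or directly from the dish. The samples were taken by their labels (drug Ruc, time 2 h, gate Hi, Lo or Un), which selected 27 of the 72 libraries of the series. Adding the 3 libraries of each gate and replicate number gave 9 of the 24 samples of the series, of which 6 were sorted and 3 unsorted. Ruc_High and Ruc_Low (3 samples each) were the brightest and the dimmest 20% of cells by drug fluorescence, after 8.5 µM rucaparib, which is itself fluorescent. Ruc_Total (3 samples) was the unsorted population with the same drug, concentration and time. Vehicle cells (3 samples, unsorted, without drug, 2 h) were kept for the levels of genes, and the same 3 treated groups after 24 h for comparison. All groups were of the same line, so each value describes 1 tumour-derived line only.

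The comparison gives the transcripts that differ between treated cells harvested in these ways. By the study's general sorting methods, sorted cells are washed, detached enzymatically, strained, held cold in buffer with serum and run through a sorter. No drug is stated for that buffer. The sample labels state the sorting of the RNA samples but not how they were detached or held, so these steps were assumed to be the same. Unsorted cells were scraped straight into lysis buffer. The cells of intermediate fluorescence are present in Ruc_Total and absent from both gates. Detachment, suspension, cold, time out of the drug medium, sorting and the choice of cells by fluorescence cannot be told apart in this design. Ruc_High and Ruc_Low of 1 replicate number were taken as gates of 1 population and are not independent of each other.

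Immediate-early genes are transcribed within minutes of a stimulus without new protein synthesis, from promoters that bind factors already present in the cell. Serum response factor binds CArG boxes, CREB binds cAMP response elements, and TEAD factors bind a short CATTCC core together with YAP, a coactivator that responds to cell shape and attachment. Many of the products are transcription factors such as EGR1 and the FOS and JUN proteins of the AP-1 complex, and others, such as the phosphatase DUSP1 and the mRNA decay factor ZFP36, shut the response down. Enzymatic dissociation and cell sorting are known to induce these genes in several tissues.

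The promoters of EGR1, FOS, DUSP1 and CCN2 are shown because these genes were among the largest increases reported here and their starts hold motifs of these 3 kinds. Sequences are from RefSeq (GRCh38.p14), run 5′ to 3′ along the gene and cover 250 bases before to 50 bases after the transcription start. Of 15 called early, feedback and NF-kB genes that were looked up, 13 matched an entry. The windows of FOSB, JUN, IER2, HES1, CXCL2, KLF2 and NFKBIZ held no CArG box, TGACGTCA or CATTCC. Those of FOSB, JUN, IER2, HES1 and CXCL2 each held 1 TGACG, as that of FOS did, and those of KLF2 and NFKBIZ held none. That of ZFP36 held CATTCC, and those of EGR2 differed between its starts. The promoters shown were picked partly for their motifs, so the shares of all windows given below are no test of enrichment. EGR1 (chr5:138465229-138465528, plus strand) has 2 CArG boxes in capitals. FOS (chr14:75278578-75278877, plus strand) has TGACG, the core of the cAMP response element, and TATAAA in capitals. DUSP1 (chr5:172771146-172771445, minus strand) has the full element TGACGTCA and TATAAA in capitals. CCN2 (chr6:131951323-131951622, minus strand) has 3 copies of CATTCC, read on the opposite strand, and TATAAA in capitals.
EGR1: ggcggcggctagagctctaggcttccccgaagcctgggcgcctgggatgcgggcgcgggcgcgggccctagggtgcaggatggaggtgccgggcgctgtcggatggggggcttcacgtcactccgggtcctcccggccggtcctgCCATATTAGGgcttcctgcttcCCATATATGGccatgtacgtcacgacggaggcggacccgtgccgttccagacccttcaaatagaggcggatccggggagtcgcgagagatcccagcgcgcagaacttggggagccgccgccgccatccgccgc
FOS: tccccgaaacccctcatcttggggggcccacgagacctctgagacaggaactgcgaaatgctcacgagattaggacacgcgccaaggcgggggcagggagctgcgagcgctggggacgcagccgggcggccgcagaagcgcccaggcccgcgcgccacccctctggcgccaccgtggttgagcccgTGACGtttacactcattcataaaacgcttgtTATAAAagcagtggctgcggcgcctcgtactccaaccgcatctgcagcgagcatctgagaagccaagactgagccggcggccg
DUSP1: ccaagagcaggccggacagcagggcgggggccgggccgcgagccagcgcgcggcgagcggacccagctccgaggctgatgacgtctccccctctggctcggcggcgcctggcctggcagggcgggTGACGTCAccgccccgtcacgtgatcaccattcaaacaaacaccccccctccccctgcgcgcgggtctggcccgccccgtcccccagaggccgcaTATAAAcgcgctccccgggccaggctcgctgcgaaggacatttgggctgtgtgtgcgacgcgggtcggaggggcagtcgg
CCN2: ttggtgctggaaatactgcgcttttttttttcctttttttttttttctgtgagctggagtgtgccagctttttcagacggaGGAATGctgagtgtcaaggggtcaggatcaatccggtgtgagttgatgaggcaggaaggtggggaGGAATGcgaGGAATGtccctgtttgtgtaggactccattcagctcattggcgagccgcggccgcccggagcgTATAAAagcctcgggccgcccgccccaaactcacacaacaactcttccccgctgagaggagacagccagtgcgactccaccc
Among 35116 promoter windows of the same length, 1.29% held a CArG box, 24.6% TGACG, 1.85% TGACGTCA and 14% CATTCC, each counted on both strands, and 7.33% held TATAAA on the gene strand. TGACG is contained in TGACGTCA, and the 4 TGACG matches of the DUSP1 window include those of its full element. A match describes the letters in the window and does not show that a factor was bound.

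Totals were 17391033 to 35502036 estimated reads per library in the sorted groups and 27050929 to 35395240 in Ruc_Total. The cells carried the markers of their lineage: KRT7, for example, averaged 6372 CPM (counts scaled to the library size by TMM) in sorted, 6978 in unsorted and 7503 in Vehicle samples, and none of 8 own markers checked (EPCAM, KRT7, KRT8, KRT18, KRT19, PAX8, WT1 and MUC16) was called between sorted and unsorted cells. MUC16 differed most, at 54.5 CPM in sorted, 97.1 in unsorted and 61.5 in Vehicle samples (log2 fold change -0.87, adjusted p = 0.085 from edgeR). Of 14 markers of leukocytes, endothelium, fibroblasts and red cells, 11 stayed at or under 1.77 CPM in every treated library at 2 h, the summed level of all 14 was 32.5 to 49.6 CPM in sorted and 32 to 48.3 in unsorted libraries, and the haemoglobin marker HBB was at 0 in 34 of 36 libraries. The exceptions were the leukocyte markers CD68 and CD14 and the endothelial marker CDH5. CD68, CDH5 and CD14 reached 25.9, 25.4 and 7.41 CPM in treated libraries and were above 0 in all 36. The read-weighted mean transcript length differed between libraries. Of the libraries at 2 h, 3 of Ruc_High, 2 of Ruc_Low and 3 of Ruc_Total (1 in each Ruc_Total replicate) were under 2800 bases. One Ruc_Low library of replicate 2 stood apart with 17391033 reads, 2324 bases and 32241 genes detected. Without that library, 301 genes were called higher and 214 lower.

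At 2 h, 249 genes were higher and 236 lower in sorted than in unsorted cells, of 20131 tested (1.24% and 1.17% of all genes, edgeR's quasi-likelihood test, Benjamini-Hochberg adjusted p under 0.05). Among genes of at least 5 CPM, the higher side was led by the immediate-early genes EGR1, FOS and FOSB, and it held mitochondrially encoded transcripts further down. The lower side held smaller differences, nearly all in protein-coding genes. The median log2 fold change was 0.77 among the higher genes, 85 of which were over 2-fold, and -0.42 among the lower genes, 4 of which were over 2-fold. Ruc_Total lay above Vehicle in the fit for 223 of the 236 lower and 97 of the 249 higher genes, beside 10340 of all 20131. Most lower genes thus had fitted Ruc_Total levels above both sorted and Vehicle cells. Both comparisons share the 3 Ruc_Total samples, so they are not independent. All 249 higher genes were above the unsorted sample of the same number in all 6 sorted samples, and 235 of the 236 lower genes were below it. The groups did not overlap for 247 of the higher and 233 of the lower genes, where 6.2% of all genes lay higher in all 6 sorted than in all 3 unsorted samples and 7.37% lower. These genes were chosen by a test of the same samples, so their common side and separation are no separate result. In these bulk samples, a level raised in all cells and one raised strongly in some of them cannot be told apart.

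With the replicate number in the model (the block), 1332 genes were called higher and 1673 lower (6.62% and 8.31%), among them all 249 and 236. Counts of called genes in the groups below stand beside these shares of all genes, and beside 1.24% and 1.17% without the block. The number of calls without the block depended on the replicates included: 329 and 52 genes passed without replicate 1, 2 and 0 without replicate 2, and 15 and 0 without replicate 3. The 2 genes that passed without replicate 2 were EGR1 and FOS. The sizes moved little: the median log2 fold change of the 249 and the 236 genes was 0.81 and -0.42 without replicate 1, 0.79 and -0.42 without replicate 2 and 0.77 and -0.37 without replicate 3, and all kept their sign. When libraries under 2800 bases were left out, 209 genes were higher and 84 lower, and these included 147 of the 249 and 18 of the 236.

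**Figure D1:**
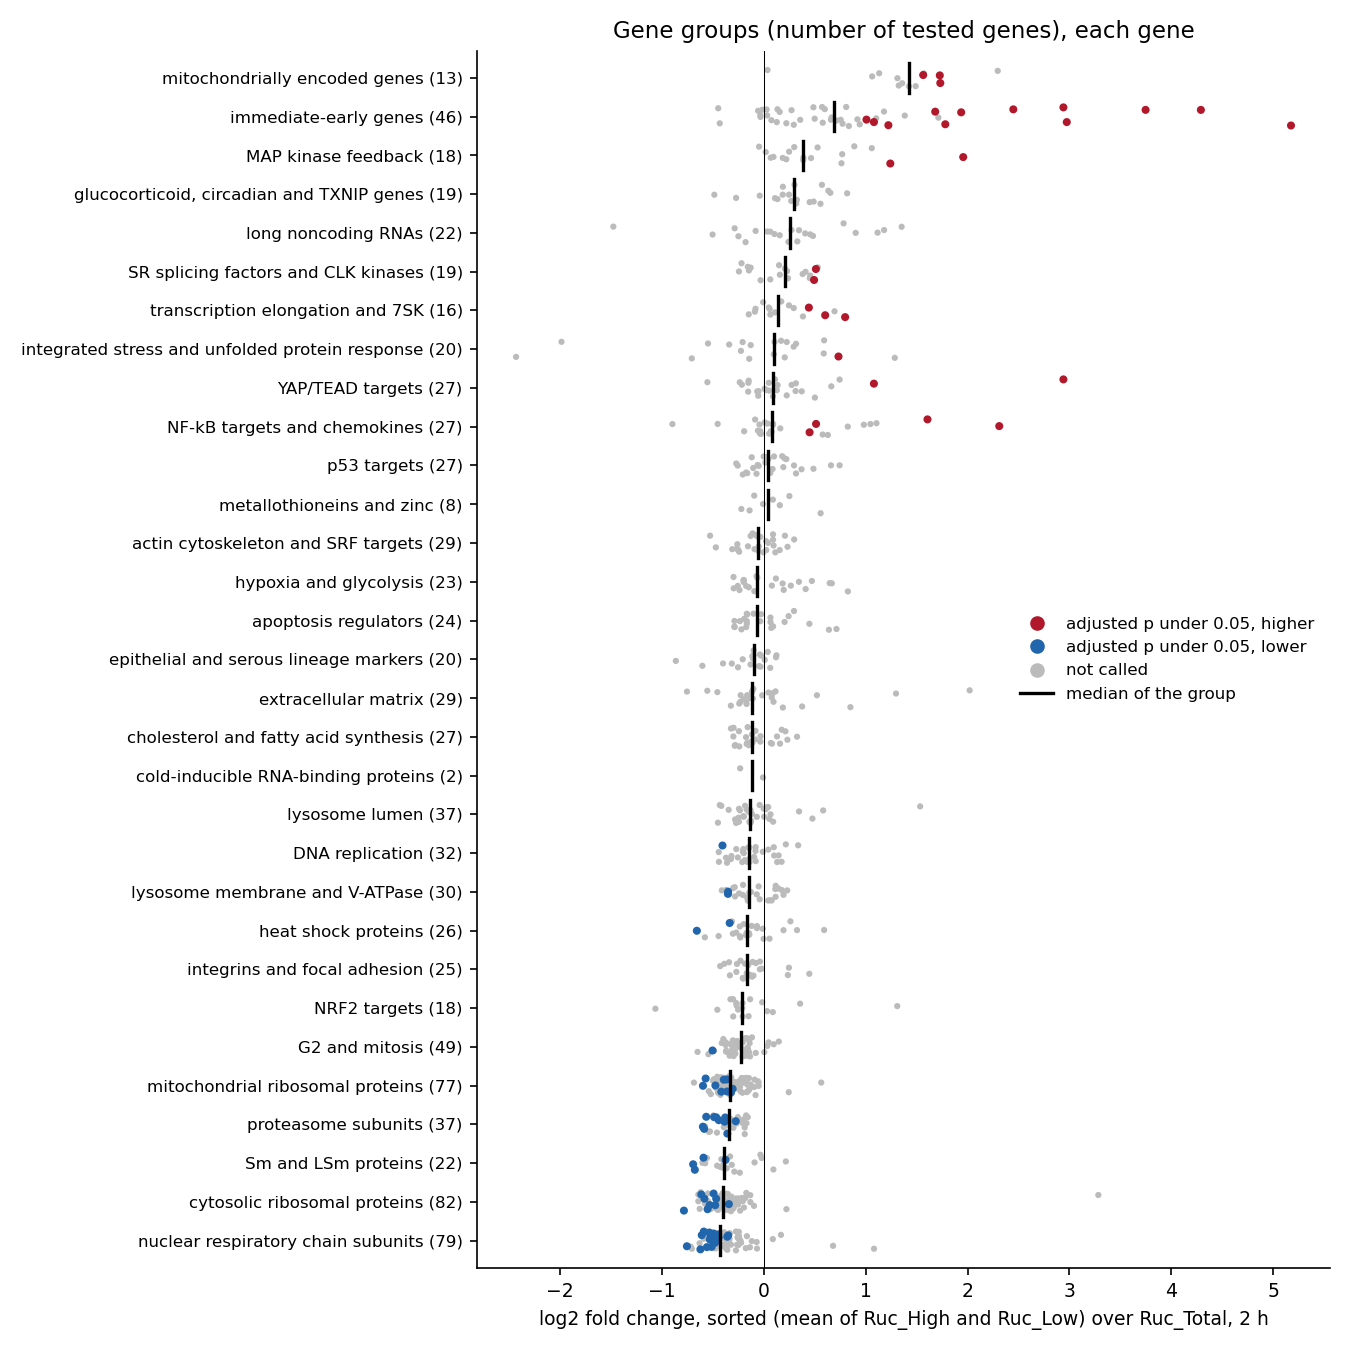
Log2 fold change of sorted (mean of Ruc_High and Ruc_Low) over Ruc_Total cells at 2 h for each tested gene (points) of 31 gene groups, with the number of tested genes in brackets and the median as a black bar; red and blue points passed an adjusted p of 0.05. The medians run between 1.42 in mitochondrially encoded genes and -0.43 in nuclear respiratory chain subunits.

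EGR1, which encodes a zinc finger transcription factor (ENSG00000120738.7, chromosome 5, 138465490 to 138469315 in GRCh38), had 696, 656 and 518 CPM in Ruc_High and 766, 608 and 529 CPM in Ruc_Low, against 17.5, 13.9 and 20.7 CPM in Ruc_Total and 18.1, 10.1 and 16.1 CPM in Vehicle (replicates 1, 2 and 3). The sorted samples were all far above the unsorted ones, with or without drug. This was a log2 fold change of 5.18 (standard error 0.27), or 36.2-fold, with an adjusted p of 1.0e-09 from edgeR. The difference between the gates was small beside it, at -0.03 for Ruc_High minus Ruc_Low (95% interval -0.52 to 0.47). Without libraries under 2800 bases the log2 fold change was 5.15.

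FOS, the AP-1 subunit whose promoter is shown above (chromosome 14, 75278774 to 75282230), had 250, 226 and 110 CPM in Ruc_High and 214, 172 and 94.7 CPM in Ruc_Low, against 8.82, 7.34 and 10.9 CPM in Ruc_Total and 8.52, 4.37 and 7.79 CPM in Vehicle. Its log2 fold change was 4.29 (standard error 0.37, adjusted p = 4.6e-06 from edgeR), and replicate 3 was the lowest in both gates. FOSB, its relative (chromosome 19, 45467995 to 45475179), had 57.9, 42.7 and 15.5 CPM in Ruc_High and 61.6, 30.1 and 17.4 CPM in Ruc_Low, against 4.49, 1.82 and 2.06 CPM in Ruc_Total and 9.59, 2.09 and 2.40 CPM in Vehicle. The increase was 3.75 (standard error 0.65, adjusted p = 0.0080 from edgeR), with the same order of replicates within each gate. JUN, the partner of both in AP-1 (chromosome 1, 58780788 to 58784327), had 441 to 544 CPM in Ruc_High and 452 to 696 CPM in Ruc_Low, against 211 to 248 CPM in Ruc_Total and 104 to 164 CPM in Vehicle. It rose by 1.22 ± 0.18 (standard error; edgeR adjusted p = 0.0026).

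CCN2 encodes connective tissue growth factor, a secreted matrix-associated protein and a standard target of YAP and TEAD (chromosome 6, 131948176 to 131951373). It had 760, 648 and 497 CPM in Ruc_High and 681, 566 and 430 CPM in Ruc_Low, against 75, 57 and 101 CPM in Ruc_Total and 68.9, 85.2 and 108 CPM in Vehicle. The increase was 2.94 (standard error 0.30, adjusted p = 3.3e-05 from edgeR), and the lowest sorted sample (430 CPM) stood far above the highest unsorted one (108 CPM). Its relative CCN1 (chromosome 1, 85580761 to 85583962) rose by 1.08 ± 0.14 (standard error; edgeR adjusted p = 0.00091), with 320 to 381 CPM in sorted and 148 to 188 CPM in unsorted samples. Of 27 YAP/TEAD targets these 2 were higher and none lower at a median of 0.09 (6 higher and 1 lower with the block), and both are also on the immediate-early list.

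Among the further early transcription factors, HES1, a repressor and Notch target (chromosome 3, 194136145 to 194138732), had 402, 224 and 66.9 CPM in Ruc_High and 372, 181 and 71.5 CPM in Ruc_Low, against 52.4, 35.3 and 32.8 CPM in Ruc_Total and 58.2, 35.4 and 21.6 CPM in Vehicle. Its increase of 2.45 had a standard error of 0.60 (adjusted p = 0.036 from edgeR), and both gates of replicate 3 lay nearest to the Ruc_Total samples. EGR2, a relative of EGR1, rose by 2.97 at 1.29 to 3.54 CPM in sorted and 0.0865 to 0.439 CPM in unsorted samples (adjusted p = 0.0059 from edgeR). KLF2, a Krüppel-like factor, rose by 1.78 and MYC, the growth regulator, by 1.01 (adjusted p = 0.025 and 0.0014 from edgeR). MYC had 179 to 250 CPM in sorted samples, against 84.8 to 123 CPM in Ruc_Total and 92.5 to 106 CPM in Vehicle. IER2, a small nuclear early response protein (chromosome 19, 13150415 to 13154908), had 1274, 942 and 659 CPM in Ruc_High and 1112, 1071 and 664 CPM in Ruc_Low, against 314, 267 and 310.0 CPM in Ruc_Total and 441, 274 and 248 CPM in Vehicle. Its increase was 1.68 (standard error 0.25, adjusted p = 0.0026 from edgeR).

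**Figure D2:**
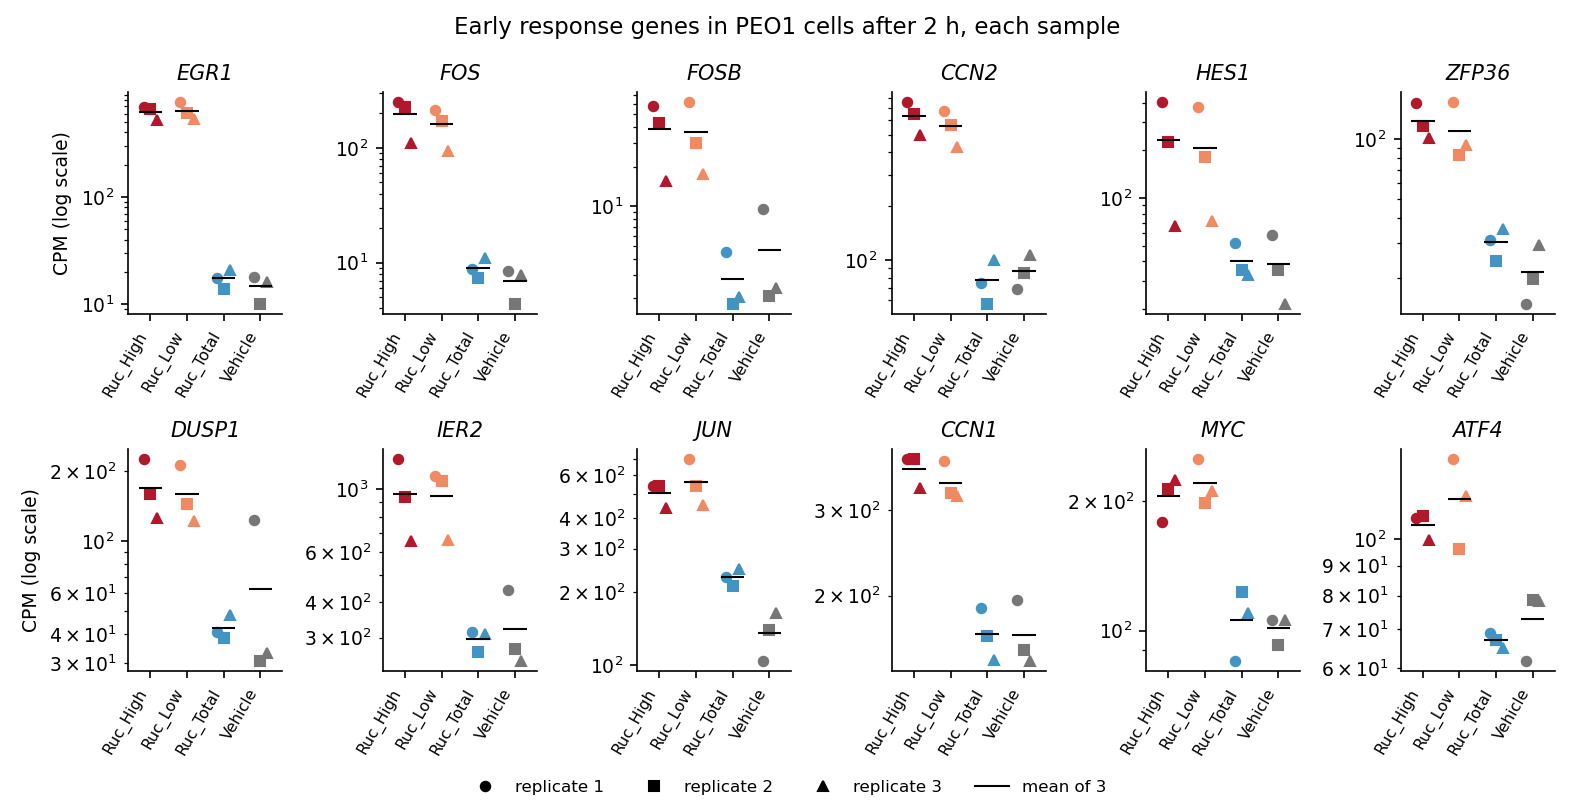
CPM on a log axis for 12 called genes in each of the 3 samples of Ruc_High, Ruc_Low, Ruc_Total and Vehicle at 2 h, with replicate numbers as symbols and the group mean as a line. Both sorted groups lie above both unsorted groups for EGR1 (518 to 766 CPM against 10.1 to 20.7), FOS and CCN2, whereas for DUSP1 Vehicle replicate 1 (123 CPM) reaches the level of sorted samples.

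Of the 46 immediate-early genes tested, 12 rose and none fell (20 and none with the block), 40 had a fold change above 0, and the median was 0.69, beside -0.01 over all genes. For 21 of them all 6 sorted samples lay above all 3 unsorted ones, and for none did they lie below, beside 6.2% and 7.37% of all genes. With libraries under 2800 bases left out, 13 of 45 were higher at a median of 0.74. The response was uneven across the list. JUNB, another AP-1 subunit, had 740 to 1551 CPM in sorted and 452 to 728 CPM in unsorted samples (log2 fold change 0.77, adjusted p = 0.061 from edgeR, 0.011 with the block). EGR3 and RHOB were at 1.10 and 0.83 (adjusted p = 0.056 and 0.061, or 0.016 and 0.0072 with the block). The AP-1 genes FOSL1, FOSL2 and JUND were at -0.03, -0.03 and 0.27, and SRF, which encodes serum response factor itself, was at 0.13 (adjusted p = 0.97, 0.94, 0.39 and 0.51 from edgeR). The orphan nuclear receptor NR4A1 had 47.7 to 85.5 CPM in sorted and 26.5 to 30.7 CPM in unsorted samples at an adjusted p of 0.17 from edgeR, while Vehicle replicate 1 reached 208 CPM and the other two 25.9 and 28.5 CPM. Its relatives NR4A3 and NR4A2 were at 1.38 and 0.60 (± 1.30 and 0.48 standard errors; edgeR adjusted p = 0.63 and 0.56), and the same Vehicle sample held their highest values, 21.7 and 21.9 CPM.

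Genes that end the early response were partly higher. DUSP1, which inactivates MAP kinases and whose promoter is shown above (chromosome 5, 172768090 to 172771195), had 225, 160 and 126 CPM in Ruc_High and 213, 145 and 122 CPM in Ruc_Low, against 40.6, 38.5 and 48.4 CPM in Ruc_Total and 123, 30.5 and 33 CPM in Vehicle. It rose by 1.96 ± 0.37 (standard error; edgeR adjusted p = 0.013). Of 18 genes of MAP kinase feedback, DUSP1 and SPRED3, an inhibitor of RAS signalling (1.24, adjusted p = 0.042 from edgeR), rose and none fell (4 and none with the block), with 17 above 0 and a median of 0.39. SPRED3 stayed under 1 CPM in every sample, and without libraries under 2800 bases it was at 0.95 with an adjusted p of 0.13 from edgeR. The ERK phosphatases DUSP5 and DUSP6 were at 0.77 and 0.76 (adjusted p = 0.16 and 0.13, or 0.019 and 0.058 with the block), and the Sprouty genes SPRY1, SPRY2 and SPRY4 at 0.89, 0.39 and 0.46 (adjusted p = 0.30, 0.23 and 0.49 from edgeR). ZFP36, which binds AU-rich elements and destabilises early and cytokine mRNAs (chromosome 19, 39406813 to 39409412), had 83.2 to 153 CPM in sorted samples, against 24.4 to 35.6 CPM in Ruc_Total and 14.9 to 29.5 CPM in Vehicle. It rose by 1.94 ± 0.27 (standard error; edgeR adjusted p = 0.0016). Its relatives ZFP36L1 and ZFP36L2 were at 0.50 and 0.36 (adjusted p = 0.14 and 0.10, or 0.0083 and 0.0028 with the block).

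Of 27 NF-kB targets and chemokines, 4 rose and none fell (7 and none with the block), at a median of 0.08. CXCL2, a neutrophil-attracting chemokine (chromosome 4, 74097035 to 74099293), had 18.3, 8.17 and 5.8 CPM in Ruc_High and 18.1, 6.71 and 5.38 CPM in Ruc_Low, against 2.50, 1.58 and 2.21 CPM in Ruc_Total. Its increase was 2.31 (standard error 0.54, adjusted p = 0.031 from edgeR). NFKBIZ, a nuclear regulator of NF-kB, rose by 1.61, the cytokine gene LIF by 0.51 and TNFAIP2 by 0.45. Their adjusted p was 0.040, 0.028 and 0.038 from edgeR, in that order. TNFAIP2, named for its induction by TNF, was chosen after its values were seen. Without libraries under 2800 bases, 1 of the 27 was called. ATF4, the central factor of the integrated stress response (chromosome 22, 39519695 to 39522685), had 96.3 to 137 CPM in sorted samples, against 65.1 to 69 CPM in Ruc_Total and 61.7 to 78.7 CPM in Vehicle, and rose by 0.73 ± 0.11 (standard error; edgeR adjusted p = 0.0026). It was the 1 gene called among 20 stress response genes (integrated stress or unfolded protein), whose median was 0.10 (3 higher and 2 lower with the block). HSPA5 and PPP1R15A of this list, chosen after their values were seen, had larger fitted differences in opposite directions. HSPA5 had 3.04, 58.6 and 80.0 CPM in Ruc_High and 0.979, 87.9 and 65.6 CPM in Ruc_Low, against 264 to 268 CPM in Ruc_Total. HSPA5 was at -2.43 and PPP1R15A at 1.29 (adjusted p = 0.18 and 0.23 from edgeR, 0.023 and 0.0037 with the block).

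Heat shock genes were not among the genes that rose. Of 26 heat shock proteins and co-chaperones, none was higher and 2 were lower (none and 7 with the block), with 5 above 0 and a median of -0.16. The inducible HSP70 genes HSPA1A and HSPA1B, near-identical copies whose reads can be split between them, had 360 to 527 and 267 to 418 CPM in sorted samples, against 390 to 553 and 280 to 476 CPM in Ruc_Total. Their log2 fold changes were -0.17 and -0.24 (adjusted p = 0.64 and 0.59 from edgeR), and the groups overlapped. DNAJB1, another heat-induced gene, had 334 to 478 CPM in sorted and 220 to 467 CPM in unsorted samples (0.32, adjusted p = 0.52 from edgeR). HSPE1, the mitochondrial co-chaperonin (chromosome 2, 197499994 to 197503457), had 152, 139 and 144 CPM in Ruc_High and 145, 150 and 144 CPM in Ruc_Low, against 247, 208 and 234 CPM in Ruc_Total and 170, 237 and 178 CPM in Vehicle, and fell by 0.66 ± 0.12 (standard error; edgeR adjusted p = 0.0098). Its partner HSPD1 was at -0.15 (adjusted p = 0.59 from edgeR). AHSA1, an activator of HSP90, fell by 0.34 (adjusted p = 0.048 from edgeR), and HSP90AA1 was at -0.45 (adjusted p = 0.13, 0.0083 with the block). After the libraries under 2800 bases were left out, HSPE1 was at -0.16 and AHSA1 at -0.22 (adjusted p = 0.55 and 0.16 from edgeR). The cold-inducible genes RBM3 and CIRBP were at -0.23 and -0.01 (adjusted p = 0.073 and 0.99 from edgeR, 0.016 and 0.93 with the block). RBM3 had 447 to 487 CPM in sorted samples, against 524 to 568 CPM in Ruc_Total.

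PPP1R10, HEXIM1 and MEPCE, which act in transcription elongation and its 7SK control, were higher in sorted than in unsorted treated cells. PPP1R10, which binds protein phosphatase 1 (chromosome 6, 30600400 to 30618612), had 26.4, 30.2 and 37.0 CPM in Ruc_High and 39.2, 32.1 and 46.9 CPM in Ruc_Low, against 17.2, 19.8 and 23.4 CPM in Ruc_Total and 52.2, 43 and 54.2 CPM in Vehicle. Its sorted samples lay between the unsorted treated and the Vehicle samples, apart from an overlap of 1 Ruc_Low sample with Vehicle. The increase was 0.80 (standard error 0.15, adjusted p = 0.012 from edgeR). HEXIM1, an inhibitor of the elongation kinase P-TEFb, had 192 to 241 CPM in sorted samples, against 140 to 156 CPM in Ruc_Total and 228 to 334 CPM in Vehicle. MEPCE, which caps and stabilises 7SK RNA, had 49.5 to 65.4, 37.3 to 49.1 and 74.7 to 93.7 CPM in the sorted, Ruc_Total and Vehicle samples. They rose by 0.60 and 0.44 (± 0.11 and 0.10 standard errors; edgeR adjusted p = 0.0096 and 0.024). Ruc_Total is the same 3 samples in both comparisons, so the distance to sorted cells and that to Vehicle are not independent. These 3 were the called members of 16 genes of transcription elongation and 7SK (5 higher and none lower with the block, median 0.14). With those short libraries left out, MEPCE was at 0.29 with an adjusted p of 0.12 from edgeR.

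Of 19 SR splicing factors and CLK kinases, RBM39, an SR-related splicing factor, and CLK2, which phosphorylates SR proteins, rose by 0.51 and 0.49 (adjusted p = 0.038 and 0.016 from edgeR) and none fell (7 higher and 1 lower with the block). CLK2 had 58 to 67 CPM in sorted samples, against 41.7 to 46.8 CPM in Ruc_Total and 32.9 to 36.5 CPM in Vehicle. Among 22 long noncoding RNAs none was called without the block and 7 were higher and 1 lower with it, at a median of 0.26. NEAT1, the scaffold of nuclear paraspeckles (chromosome 11, 65422774 to 65445540), had 1418, 1090.0 and 781 CPM in Ruc_High and 1063, 788 and 731 CPM in Ruc_Low, against 703, 300.0 and 284 CPM in Ruc_Total. Its log2 fold change was 1.18 (standard error 0.44), with an adjusted p of 0.15 from edgeR and of 0.00046 with the block, and in each replicate both gates lay above Ruc_Total. MALAT1, another nuclear RNA, was at 0.48 (adjusted p = 0.71 from edgeR).

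Transcripts of the mitochondrial genome took a larger share of the reads in sorted cells. The share was 2.21, 2.70 and 3.35% in Ruc_High and 3.01, 2.85 and 3.92% in Ruc_Low, against 1.39, 1.16 and 0.955% in Ruc_Total and 0.411, 0.791 and 0.989% in Vehicle. It averaged 3.01 ± 0.58% in sorted and 1.17 ± 0.22% in unsorted treated samples (SD, n = 6 and 3). The 6 sorted samples lay above all unsorted ones, which gave an exact two-sided permutation p of 0.0238, the smallest these numbers allow, and this test treats the gates of 1 population as separate samples. Single libraries overlapped: they ran between 0.387 and 5.29% in the sorted groups and between 0.871 and 2.11% in Ruc_Total. With libraries under 2800 bases left out the shares were 2.63 to 4.29% in sorted and 0.999 to 1.55% in unsorted samples. The 4.29% was that of Ruc_High replicate 1, which kept 1 library and was at 2.21% with all 3.

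All 13 mitochondrially encoded protein-coding genes had a fold change above 0, at a median of 1.42, but 3 passed the test and 8 did so with the block. MT-CO1, a subunit of cytochrome c oxidase, had 4922, 4996 and 5441 CPM in Ruc_High and 6148, 4991 and 6515 CPM in Ruc_Low, against 2318, 1781 and 1469 CPM in Ruc_Total and 813, 1198 and 1437 CPM in Vehicle. Its increase was 1.56 (standard error 0.28, adjusted p = 0.0098 from edgeR). The complex I subunits MT-ND1 and MT-ND4L rose by 1.73 each (± 0.40 and 0.32 standard errors; edgeR adjusted p = 0.029 and 0.012). MT-ND1 had 1723, 2230.0 and 3173 CPM in Ruc_High and 2467, 2410.0 and 3717 CPM in Ruc_Low, against 944, 770 and 642 CPM in Ruc_Total. MT-ND3, also of complex I and chosen after its values were seen, averaged 503 ± 28 CPM in sorted and 491 ± 51 CPM in unsorted samples, a log2 fold change of 0.04. None of the 13 was called without replicate 2 or without replicate 3, at medians of 1.61 and 1.09, and 4 were called without libraries under 2800 bases at a median of 1.55.

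**Figure D3:**
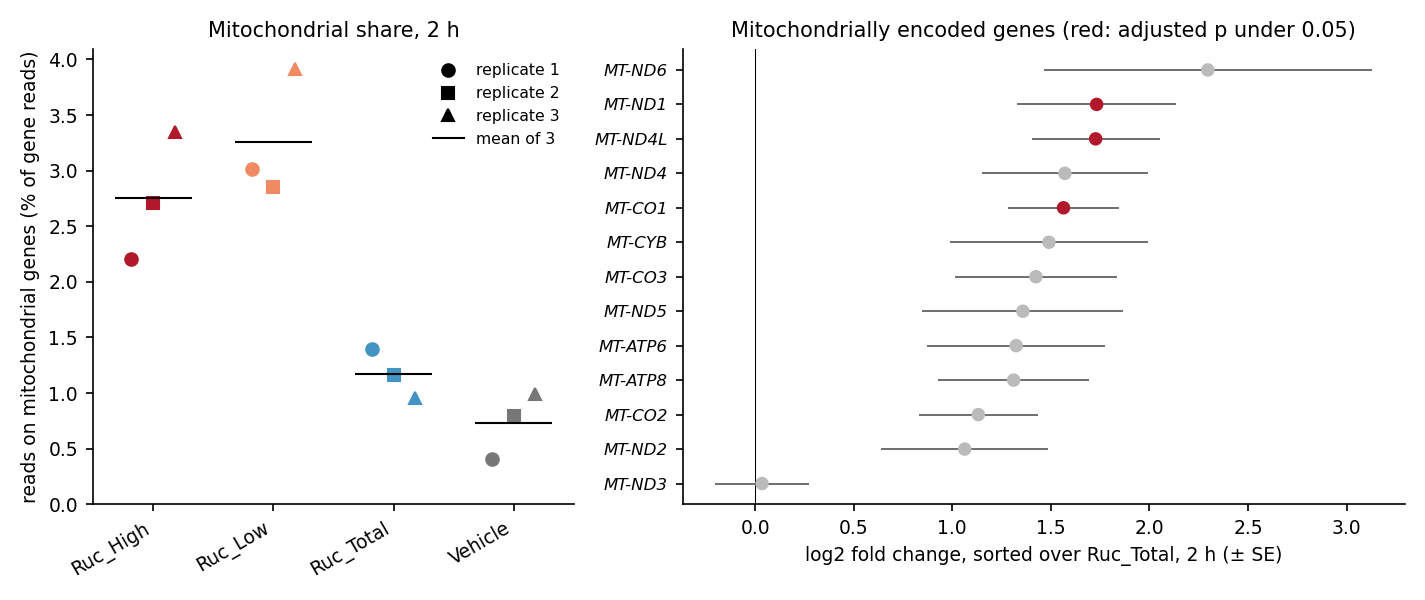
Left, share of gene reads on the mitochondrial genome (percent) in each sample of Ruc_High, Ruc_Low, Ruc_Total and Vehicle at 2 h, with the mean of 3 as a line; right, log2 fold change of sorted over Ruc_Total cells with its standard error for the 13 mitochondrially encoded genes. Sorted samples lie at 2.21 to 3.92% and unsorted treated ones at 0.955 to 1.39%, and MT-ND3 lies near 0.

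The lower genes were shorter at the median than all genes tested. Their median transcript length was 1380 bases and 97.9% were protein coding, beside 2849 bases and 69.1% among the higher genes and 2320 bases and 74.8% among all genes tested. COX7B, a small subunit of cytochrome c oxidase (chromosome X, 77899438 to 77907373), had 91.2, 84.6 and 70.9 CPM in Ruc_High and 87.2, 77.5 and 70.7 CPM in Ruc_Low, against 155, 117 and 135 CPM in Ruc_Total and 78.9, 140.0 and 91.1 CPM in Vehicle. It fell by 0.76 ± 0.15 (standard error; edgeR adjusted p = 0.017). RPL39, a ribosomal protein, had 262 to 345 CPM in sorted samples, against 449 to 534 CPM in Ruc_Total and 159 to 473 CPM in Vehicle, and fell by 0.79 (adjusted p = 0.046 from edgeR). SNRPG and LSM3, ring proteins of spliceosomal RNPs, had 47.9 to 55.5 and 65.9 to 76.6 CPM in sorted samples, against 81.1 to 84.6 and 113 to 118 CPM in Ruc_Total. Their decreases were narrow in each group, at -0.68 and -0.70 (adjusted p = 0.020 and 0.025 from edgeR), although the Vehicle samples ran between 47.6 and 91.9 and between 55.5 and 123 CPM. The largest decreases also held S100A9, a calcium-binding protein (-0.85), CWC27, a spliceosomal isomerase (-0.68), TIMM8B, a chaperone of mitochondrial import (-0.64), SEC11C, a signal peptidase subunit (-0.63), and the noncoding RNA LINC01963 (-0.65).

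ZFHX3, which encodes a large homeodomain transcription factor (chromosome 16, 72782885 to 73891871), differed from these in length, with a mean transcript of 14710 bases. It had 21.4, 28.3 and 24.1 CPM in Ruc_High and 25.7, 21.9 and 24.4 CPM in Ruc_Low, against 36 to 46.8 CPM in Ruc_Total, and fell by 0.75 ± 0.20 (standard error; edgeR adjusted p = 0.050). The largest fitted decrease, -3.31, belonged to RPS23P8, a pseudogene of a ribosomal protein whose reads may come from its parent gene, and it rested on 1 sample: Ruc_Total had 83.2, 4.35 and 3.04 CPM, against 1.54 to 6.49 CPM in the sorted samples, and the groups overlapped. Without libraries under 2800 bases its value was 0.80.

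By families defined from their symbols after the values were seen, 18 of 79 nuclear respiratory chain subunits, 9 of 82 cytosolic ribosomal proteins, 9 of 77 mitochondrial ribosomal proteins, 10 of 37 proteasome subunits and 4 of 22 Sm and LSm proteins fell, and none rose. With the block the numbers lower were 51, 51, 43, 21 and 14, with 1 gene higher in each family but the proteasome. The medians of the 5 families were -0.43, -0.40, -0.33, -0.35 and -0.39, in the same order. PSMB6, a catalytic proteasome subunit, averaged 65.2 ± 3.7 CPM in sorted and 97.9 ± 9.1 CPM in unsorted samples (SD, n = 6 and 3), and ATP5MC1, a subunit of the ATP synthase ring, 45 ± 1.9 and 67.7 ± 4.9 CPM. Both were chosen after their values were seen. When the libraries under 2800 bases were left out, the medians of the 5 families were -0.04, 0.01, -0.04, -0.10 and -0.04, and 2 mitochondrial ribosomal proteins were the only members called.

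This change with short libraries was seen across all genes by length. Among 10914 genes of at least 5 CPM, the median log2 fold change was -0.32 for genes under 1000 bases (4 called higher and 67 lower), -0.13 from 1000 to under 2000 bases, 0.00 from 4000 to under 6000 bases and -0.08 at 6000 bases or more (8 called higher and 13 lower). For genes under 1000 bases it was -0.32 in replicate 1, -0.09 in replicate 2 and -0.57 in replicate 3. Without libraries under 2800 bases the median was 0.01 under 1000 bases, -0.06 from 4000 to under 6000 bases and -0.17 at 6000 bases or more. Across these genes, which are not independent replicates and share their libraries, Spearman's rho between transcript length and fold change was 0.26. With the block and a covariate for each sample's mean transcript length, all 236 lower genes were called at a median of -0.40, and with an offset for effective transcript length 10 were called at a median of -0.35. The 236 genes had a median of -0.15 without the short libraries, so the alternatives that take length into account differed in the size they left. Of the 17 lower genes chosen by the naming rule, ZFHX3 was the 1 that passed without the short libraries (adjusted p = 0.040 from edgeR), and of the 26 higher genes chosen by it 22 did.

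**Figure D4:**
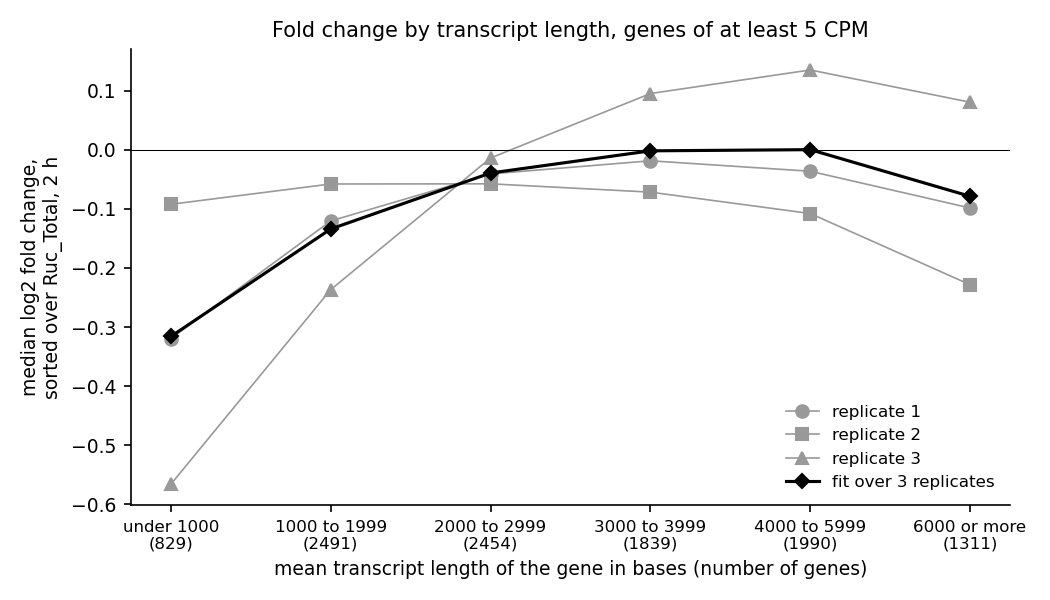
Median log2 fold change of sorted over Ruc_Total cells at 2 h in 6 bins of mean transcript length (bases, number of genes in brackets) for genes of at least 5 CPM, over 3 replicates (black) and in each replicate (grey). For genes under 1000 bases the median is -0.32 over the replicates and -0.57, the lowest, in replicate 3.

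Among cell cycle genes, 1 of 49 G2 and mitosis genes, the spindle checkpoint gene MAD2L1, and 1 of 32 DNA replication genes, RFC2 of the clamp loader, fell and none rose (8 and 9 lower with the block, medians -0.23 and -0.15). Over all genes tested, 1.17% were lower, and 8.31% with the block, so single calls in lists of this size are no result about the list. MAD2L1 had 74.6 to 91.7 CPM in sorted samples, against 110.0 to 130.0 CPM in Ruc_Total (-0.51, adjusted p = 0.018 from edgeR), and RFC2 was at -0.42 (adjusted p = 0.020 from edgeR). Of 30 genes of the lysosome membrane and its proton pump, ATP6AP2 and ATP6V0B, both V-ATPase components, fell by 0.35 each (adjusted p = 0.018 and 0.042 from edgeR; 7 lower with the block), and of 37 lysosomal lumen proteins none was called (1 higher and 8 lower with the block, medians -0.15 and -0.13). The lumen protease gene CTSD averaged 274 CPM in sorted and 302 CPM in unsorted samples. It had 323, 323 and 270 CPM in Ruc_High and 224, 282 and 220 CPM in Ruc_Low, against 286, 314 and 308 CPM in Ruc_Total. Without libraries under 2800 bases none of MAD2L1, RFC2, ATP6AP2 and ATP6V0B passed, with ATP6AP2 nearest at an adjusted p of 0.057 from edgeR.

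Adhesion and cytoskeleton genes held no calls. The medians were -0.17 over 25 integrin and focal adhesion genes (3 above 0), -0.06 over 29 actin cytoskeleton and SRF targets and -0.12 over 29 extracellular matrix genes, with 5, 5 and 3 lower and 0, 0 and 1 higher with the block. With the block, 8.31% of all genes were lower and 6.62% higher. ITGA3, an integrin subunit, averaged 1646 CPM in sorted and 1672 CPM in unsorted samples, and ACTG1, cytoplasmic actin, was at -0.05. Of 27 p53 targets none was called, at a median of 0.04 (1 higher and 2 lower with the block). GADD45A, a growth arrest gene of that list, had 252 to 709 CPM in sorted and 195 to 343 CPM in unsorted samples (0.74, adjusted p = 0.25, 0.011 with the block).

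No gene was called among 20 epithelial and serous lineage markers, 23 hypoxia and glycolysis genes, 27 of cholesterol and fatty acid synthesis, 8 metallothioneins and zinc genes, 18 NRF2 targets, 24 apoptosis regulators, 19 glucocorticoid, circadian and TXNIP genes and the 6 tested markers of other cell types. With the block the numbers higher were 0, 1, 0, 0, 1, 2, 3 and 0, and lower 1, 4, 4, 0, 5, 2, 2 and 0, in that order. The shares of all genes with the block were 6.62% higher and 8.31% lower. The glucocorticoid and circadian list had the highest median of these, 0.30, with 16 of 19 above 0, and the NRF2 targets the lowest, -0.21, which was -0.03 without libraries under 2800 bases. The glycolytic enzyme gene GAPDH had a mean of 4547 CPM in sorted and 5593 CPM in unsorted samples (-0.30, adjusted p = 0.27 from edgeR, 0.015 with the block). FTH1, ferritin heavy chain, was at -0.27 (adjusted p = 0.25 from edgeR, 0.039 with the block). Against Ruc_Total, FTH1 was at 0.005 in Ruc_High and -0.55 in Ruc_Low, and it was not called between the gates without the block.

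Between the gates, 1 gene was higher in Ruc_High than in Ruc_Low and none lower without the block (647 at an unadjusted p under 0.05 by edgeR), and 75 were higher and 1 lower with it. None of the 249 and 236 genes was called between the gates without the block. The gates share the Ruc_Total samples and together chose these genes, so their common direction is no separate result. Against Ruc_Total, Ruc_High alone gave 69 genes higher and 11 lower and Ruc_Low alone 83 and 29, from 3 sorted samples each. For FOS and CCN2 the difference of Ruc_High minus Ruc_Low was 0.28 (95% interval -0.44 to 1.00) and 0.18 (-0.43 to 0.80).

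After 24 h with the drug, sorted cells differed from unsorted cells in 870 genes higher and 1035 lower (4.32% and 5.14%), in samples that share none with those at 2 h. Of the 249 genes higher at 2 h, 245 had the same direction at 24 h and 181 were called, and of the 236 lower genes 229 and 101. Among the immediate-early genes 17 were higher and 1 lower at 24 h, at a median of 0.55. EGR1, FOS, FOSB and CCN2 stood at 4.85, 3.96, 3.36 and 3.61 at 24 h (standard errors 0.27, 0.37, 0.64 and 0.31). HES1 was at 1.48 and HEXIM1 at 0.15 there and neither was called (adjusted p = 0.10 and 0.38 from edgeR). Of the 13 mitochondrially encoded genes 12 were called at 24 h, at a median of 3.02, and MT-ND1 was at 3.53.

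No gene differed in its sort difference between 24 h and 2 h by edgeR after adjustment, while 1101 of 20131 did at an unadjusted p under 0.05. With the block 0 were called, and DESeq2 called 7. MT-ND1 and MT-CO1 changed by 1.80 and 1.21 more at 24 h than at 2 h, at an adjusted p of 0.81 each from edgeR, so the larger values at 24 h were not shown to differ from those at 2 h. For IER2 the difference was -0.66 and for CCN2 0.67 (adjusted p = 0.81 each from edgeR).

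**Figure D5:**
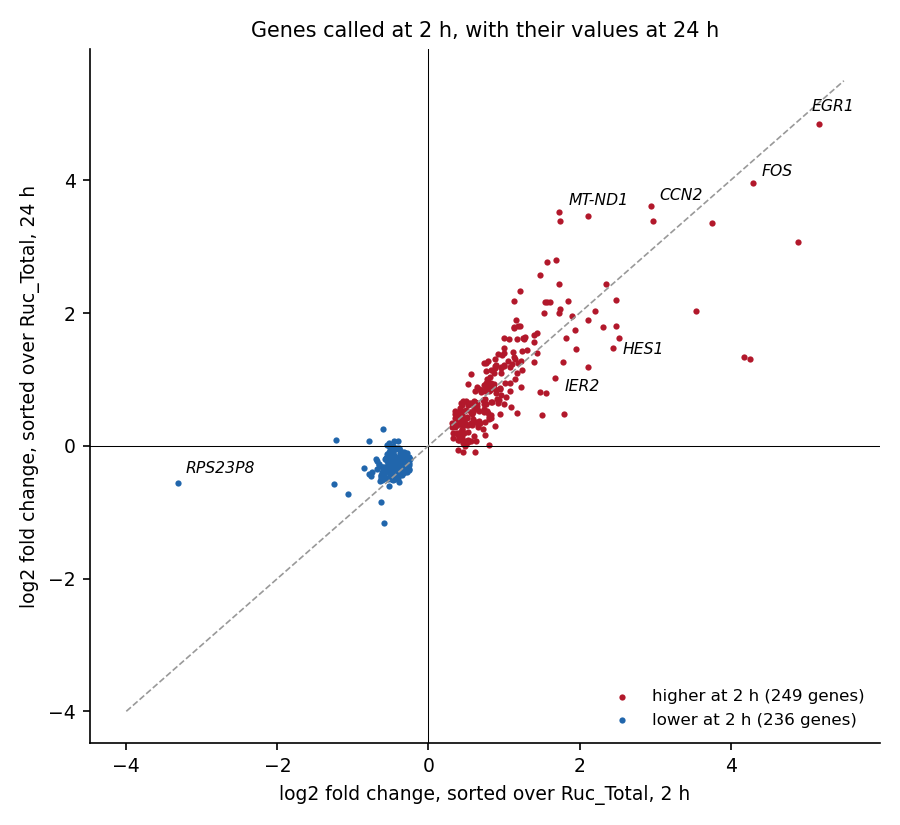
Log2 fold change of sorted over Ruc_Total cells at 24 h (vertical) against that at 2 h (horizontal) for the 249 genes higher (red) and the 236 lower (blue) at 2 h; the dashed line marks equal values. EGR1 lies at 5.18 and 4.85, and MT-ND1 above the line at 1.73 and 3.53.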

How the data were processed

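RNA of PEO1 cells was sequenced in 8 groups with 3 replicate numbers and 3 libraries each. For each library the authors deposited a Salmon table of estimated counts and TPM values of every transcript (no version is given in the sources used here), and the submitters' processing notes name cutadapt 4.7, DESeq2 1.44.0 and GRCh38. Libraries were polyadenylated and strand-specific. Of 257369 transcripts, 194437 were matched to a gene by GENCODE 29 identifier and 11552 by a gene name table, and 51380 (7.11 to 8.96% of reads) were left out. Estimated counts were summed over transcripts and over the 3 libraries of a sample, taken as technical because the study describes technical repeats from separate wells within biological replicates on different days for sorting experiments in general, and rounded.

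All 24 samples were fitted with edgeR 4.0.16 in R 4.3.3 (quasi-likelihood, TMM, filterByExpr, no block), with the mean of Ruc_High and Ruc_Low against Ruc_Total at 2 h and its difference from that at 24 h as contrasts and a Benjamini-Hochberg threshold of 0.05. CPM are counts scaled by TMM, and 95% intervals use 16 residual degrees of freedom. The depth of a sample limits low genes only, and p-values measure the spread between these samples. Replicate numbers pair the samples, since repeats of sorting experiments were made on separate days in the study. The deviations from group means correlated at a median of 0.46 (lowest -0.01, n = 9 pairs) between same-numbered treated samples at 2 h and of -0.24 between others.

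Named genes are the 12 largest increases and decreases past the threshold with at least 5 CPM and the same side in all replicates, up to 3 called members of each of 27 lists per direction, the 2 highest members where none was called, and any immediate-early, feedback, heat shock or cold-inducible gene. The members and lists were chosen with earlier results of these data known. The results were also computed with DESeq2 1.42.0, with its size factors in edgeR, with other filters, the block, the 9 samples alone, an effective-length offset, limma 3.58.1 on log2(TPM + 1) of the deposited TPM, replicates, gates or libraries left out, and mean transcript length as a covariate.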

Additional observations from a re-analysis of the deposited data

Results flagged for a closer look

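In 12 comparisons of library measures among the 9 libraries of Ruc_High, Ruc_Low and Ruc_Total at 2 h, 5 values lay far from the others by Dixon's test at 95%, where chance gives about 1 in 20. One Ruc_Low library of replicate 2 had 17391033 estimated reads (the next lowest 31407309), a mean transcript length of 2324 bases (next lowest 2783) and 32241 genes detected (next highest 24212). A Ruc_High library of replicate 2 had 29040832 reads (next lowest 32182830). In Ruc_Total, a library of replicate 1 had a mitochondrial share of 2.109%, against 1.39% in the next highest.

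AKR1C2, a reductase of steroids and an NRF2 target, was the 1 gene that differed between the gates without the replicate block, where 75 genes were higher and 1 lower in Ruc_High with it. It had 0.478, 0.473 and 0.406 CPM in Ruc_High and 0.0431, 0.0619 and 0.0739 CPM in Ruc_Low, against 0.414, 0.321 and 0.305 CPM in Ruc_Total. The log2 difference of Ruc_High minus Ruc_Low was 2.896 (standard error 0.43, adjusted p = 0.041 from edgeR). The pooled value of both gates against Ruc_Total, -1.07 (adjusted p = 0.093, 0.031 with the block), thus joins a Ruc_High value of 0.38 and a Ruc_Low value of -2.51.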

How the results depend on the processing

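Without the block, leaving out 1 replicate gave 2 to 329 genes higher and 0 to 52 lower at 2 h, and with the block 975 and 568 (without replicate 1), 142 and 102 (without replicate 2) and 261 and 85 (without replicate 3). The replicate block gave 1332 and 1673, and 1831 and 2965 with mean transcript length as a covariate as well. DESeq2 gave 780 and 580. The effective-length offset gave 76 and 14 and limma on log2(TPM + 1) 97 and 12. Without a filter on low counts 60 were lower, in the fit of the 9 treated samples alone 155, and without libraries under 2800 bases 84. Ruc_High alone gave 69 and 11, and Ruc_Low alone 83 and 29. Genes that differed between 24 h and 2 h were 7 by DESeq2, 1 with the block and without replicate 3, 8 with the block and the length covariate, and 0 under the other alternatives that gave this value.

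Every one of the 249 higher and 236 lower genes that was tested kept its sign under DESeq2, the block and each replicate left out. Of the 43 called genes chosen by the naming rule, the number still called was 43 with DESeq2, with the block and with the block and the length covariate, 20 with the length offset, 23 without replicate 1, 2 without replicate 2, 10 without replicate 3 and 23 without libraries under 2800 bases, where RPS23P8 reversed to 0.80. The cause of these changes was not tested. The replicate block ended no call named here. At these depths low genes such as EGR2 and SPRED3 are the least precise.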
